A study of Arabidopsis thaliana with 12 samples.

Results

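Shoots of Arabidopsis thaliana seedlings that overexpress CCA1 (CCA1-ox) were compared with shoots of the wild type Col-0 (WT), gene by gene. The genes compared were those with an FPKM of at least 1 in 3 or more of the 6 shoot libraries, 18739 of the 33010 genes in the table. FPKM is a count of sequenced fragments divided by gene length and by library size. Both groups had 3 shoot libraries from seedlings 8 days old, which were kept in continuous white fluorescent light of 15 µE at 22 °C. The labels do not give the promoter that drives CCA1 in the overexpressor, the number of lines, the plants pooled per library or the hour of harvest. Nothing in them says that the 3 libraries of a group came from separate cultures, and p-values therefore speak only to the spread between these samples. That spread may be technical. Roots of the same genotypes make up the other 6 libraries of the study, whose title concerns a circadian control of proton gradients and growth.

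CCA1 is a MYB-related transcription factor that accumulates around dawn. Together with its close relative LHY it binds the evening element and holds down genes that peak in the evening. These in turn repress CCA1 and LHY. Pseudo-response regulators of the PRR family act in sequence through the day, and the evening complex of ELF3, ELF4 and LUX acts at night. Plants with constantly high CCA1 are known to lose rhythms in continuous light. Shoots with an intact clock use it to time photosynthesis, starch turnover, growth and flowering.

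Transcript levels differed across much of the shoot transcriptome, mostly by small amounts. By limma on log2(FPKM + 1), with Benjamini-Hochberg adjustment over all 18739 genes and a call at adjusted p under 0.05, 11101 genes were called (59.2% of those tested). Of these, 5102 were higher in CCA1-ox (27.2%) and 5999 were lower (32%). A change of at least 2-fold was far rarer and mostly upward: 791 called genes were at least 2-fold higher (4.22%) and 160 at least 2-fold lower (0.854%). The 3 CCA1-ox libraries did not overlap the 3 WT libraries in 11931 genes (63.7%). The median log2 fold change over all genes tested was −0.028, and these shares and this median are the background for every list described here. Means are given ± SD over the 3 libraries of a group, and log2 fold changes are CCA1-ox over WT computed after adding 1 FPKM, so the change of a gene with low values is understated.

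The direction of change went with transcript level. Among the 1804 genes with a mean of up to 2 FPKM over the 6 shoot libraries, 38.4% rose and 13.4% fell, with a median log2 fold change of 0.11. Among the 994 genes above 100 FPKM, 18.2% rose and 71.9% fell, with a median of −0.28. The filter also let in 485 genes that reached 1 FPKM in all CCA1-ox libraries and in no WT library, and 88 with the reverse pattern; these had to differ. The genes left out comprised 7177 that were at 0 in all 6 shoot libraries and 7094 with lower values than the filter asks. Ranked by the value that decides the filter, which is the lowest of a gene's 3 highest libraries, YUC4 was just inside at 1.001 FPKM and AT1G60360 just outside at 0.999 FPKM.

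**Figure D1:**
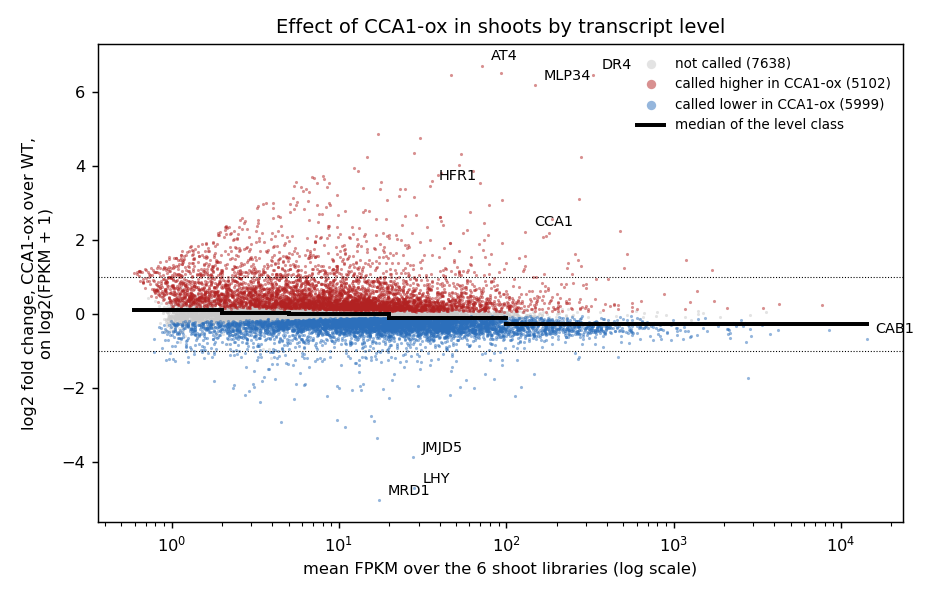
Log2 fold change of each gene, CCA1-ox over WT in shoots, against its mean FPKM over the 6 shoot libraries on a log axis; red points were called higher, blue points lower and grey points not called, black bars are medians within classes of level, and dotted lines mark 2-fold. The median is 0.11 in the lowest class and −0.28 in the highest, and the 791 rises past 2-fold outnumber the 160 falls.

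Library totals were 37216665 to 39814773 fragments in CCA1-ox shoots, against 39683894 to 44242304 in WT shoots. The library size behind the deposited FPKM was 0.976 of the summed fragments in CCA1-ox shoots and 0.906 in WT shoots. Scaling to the summed fragments instead moved the median log2 fold change of all genes by 0.095 and a limma-voom fit of the recovered fragments moved it by 0.11. Small falls and small rises are therefore relative to the deposited scaling. With the summed fragments 64.8% of called genes were higher, against 45.96% with the deposited values. RNA amounts are relative in bulk tissue, and fewer cells of a type cannot be told apart from less RNA per cell.

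The label of shoot held in both groups. The 6 mesophyll and leaf markers summed to 21074 to 21436 FPKM in CCA1-ox shoots, against 25676 to 25758 FPKM in WT shoots, among them the Rubisco small subunit gene RBCS1A at 7241 ± 139.7 FPKM in CCA1-ox shoots and 9707 ± 154 FPKM in WT shoots. None of 7 root hair markers passed the filter; EXPA7, RSL4 and LRX1 were at 0 in all 6 libraries, and all 7 together summed to 0.101 to 0.243 FPKM in CCA1-ox shoots, against 0.02203 to 0.0945 FPKM in WT shoots. Root cap and root tip genes were also near 0, with WOX5 alone past the filter (0.838 against 1.24 FPKM). Markers of the root endodermis and of xylem were higher: 7 of 7 tested root endodermis markers and 7 of 7 tested xylem markers rose. Among the former 1 passed the filter only through CCA1-ox. Of the 6 mesophyll markers 1 rose and 3 fell. Summed endodermis markers stood at 46.6 to 52.4 FPKM in CCA1-ox shoots, against 21.1 to 23.4 FPKM in WT shoots. The meristem gene KNAT1 also rose (log2 fold change 1.59 ± 0.058 SE, limma adjusted p = 1.96e-11), at 36.8 ± 1.35 FPKM in CCA1-ox shoots and 11.5 ± 0.512 FPKM in WT shoots. Of 7 meristem and boundary genes 3 were tested, of which 2 rose and 1 was not called. Of 5 phloem markers 4 rose, while the sucrose carrier SUC2 fell (log2 fold change −0.52). None of 5 trichome and epidermis markers rose, and 1 of them passed the filter only through WT. Of 10 stomatal lineage genes 2 rose and 6 fell.

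Of the 791 genes at least 2-fold higher, 428 (54.1%) had a mean FPKM in WT roots at least 5 times that in WT shoots. Over all 18739 genes tested, 1076 (5.74%) did. A low level in WT shoots enters both the choice of the 791 genes and this ratio, so the 2 shares are not a like comparison. Of the 791, 279 passed the filter only through CCA1-ox. Of all 485 genes that passed in this way, 338 (69.7%) had such a ratio. The shares are descriptions, and no test was made of them. The part of cell composition in these rises was not tested.

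CCA1 itself had 214, 216 and 212 FPKM in CCA1-ox shoots, against 44.9, 45.2 and 44.8 FPKM in WT shoots. Every CCA1-ox library was above every WT library (log2 fold change 2.23 ± 0.032 SE, limma adjusted p = 1.01e-15), and the table does not separate the transgene's transcript from that of the native gene. LHY, the partner of CCA1 at dawn, had 1.09, 1.23 and 1.11 FPKM in CCA1-ox shoots, against 54.7, 55.1 and 55.3 FPKM in WT shoots. It fell in all CCA1-ox libraries (log2 fold change −4.71 ± 0.052 SE, limma adjusted p = 6.16e-17), among the deepest falls in the shoot. Of 16 morning clock genes, all past the filter, 7 rose, 8 fell and 1 was not called. CCA1, which the line overexpresses by design, is among those that rose, which leaves 6. The list had a median log2 fold change of −0.069, near that of all genes.

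The morning genes thus split in direction. Higher were the pseudo-response regulators PRR7 and PRR9, repressors that follow CCA1 in the morning. PRR7 had 69.2, 73.3 and 72.3 FPKM in CCA1-ox shoots, against 12.4, 12.98 and 12.4 FPKM in WT shoots (log2 fold change 2.42 ± 0.038 SE, limma adjusted p = 2.18e-15). PRR9 was lower in level, at 5.48 ± 0.326 FPKM in CCA1-ox shoots and 1.66 ± 0.225 FPKM in WT shoots (log2 fold change 1.29 ± 0.097 SE, limma adjusted p = 5.10e-08). The coactivator LNK1 rose, with means of 37.2 ± 0.346 FPKM in CCA1-ox shoots and 13.8 ± 1.07 FPKM in WT shoots, while its relative LNK2 fell, at 52.7 ± 1.601 FPKM in CCA1-ox shoots and 104 ± 2.21 FPKM in WT shoots (log2 fold changes 1.37 and −0.97). Among the REVEILLE genes, MYB-like relatives of CCA1, RVE2, the list's most abundant gene in WT, had 39.1, 39.4 and 39.7 FPKM in CCA1-ox shoots, against 186, 191 and 184 FPKM in WT shoots and fell (log2 fold change −2.22 ± 0.043 SE, limma adjusted p = 2.05e-14). RVE1, which links the clock to auxin, and RVE8, an activator of evening genes, also fell (log2 fold changes −1.18 and −1.15), whereas RVE7 rose (1.17, 15.99 against 6.58 FPKM).

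The evening list leaned down. Of 20 tested genes of 21, 11 fell, 5 rose and 4 were not called, with a median of −0.303. The filter was passed only through WT by 3 of those tested, which had to be lower. JMJD5, a JmjC-domain oxygenase expressed in the evening, had 2.84, 3.13 and 2.16 FPKM in CCA1-ox shoots, against 52.5, 51.3 and 54.6 FPKM in WT shoots (log2 fold change −3.87 ± 0.077 SE, limma adjusted p = 2.70e-14). ELF4, a subunit of the evening complex, had 2.63, 2.58 and 1.44 FPKM in CCA1-ox shoots, against 30.7, 32.3 and 31.7 FPKM in WT shoots (log2 fold change −3.36 ± 0.11 SE, limma adjusted p = 8.36e-12). Both were more than 10 times lower in mean FPKM in CCA1-ox than in WT, without overlap of libraries. FKF1 is a blue-light receptor and F-box protein that marks flowering repressors for breakdown. It had 0.152, 0.362 and 0.3198 FPKM in CCA1-ox shoots, against 9.16, 9.01 and 7.99 FPKM in WT shoots (log2 fold change −2.93 ± 0.084 SE, limma adjusted p = 1.33e-12), and passed the filter only through WT. BOA, a relative of LUX, did so too, with 0.384, 0.3998 and 0.464 FPKM in CCA1-ox shoots, against 6.45, 6.15 and 6.47 FPKM in WT shoots (log2 fold change −2.38 ± 0.066 SE, limma adjusted p = 9.22e-13). TOC1, the repressor that closes the loop with CCA1, fell less (16.4 ± 0.487 FPKM in CCA1-ox shoots and 37.2 ± 1.03 FPKM in WT shoots, log2 fold change −1.14). Small falls were seen for PRR5 (−0.74), LUX (−0.71) and ELF3 (−0.47). GI, a scaffold for the FKF1 family, went the other way, with 17.4, 17.5 and 16.4 FPKM in CCA1-ox shoots, against 4.31, 4.33 and 4.59 FPKM in WT shoots (log2 fold change 1.74 ± 0.047 SE, limma adjusted p = 7.33e-13), and so did CCR1, a glycine-rich RNA-binding protein, at 392 ± 5.596 FPKM in CCA1-ox shoots and 141 ± 1.72 FPKM in WT shoots (log2 fold change 1.47 ± 0.025 SE, limma adjusted p = 5.74e-15). TOC1, GI, CCR1, PRR5, LUX and ELF3 are named here after their values were seen.

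The evening element, AAAATATCT on either strand, lay between 250 bases before and 50 bases after the annotated gene start in 10 of 20 evening genes. Of these 8 fell and 2 rose. Of the 10 evening genes without it, 3 fell, 3 rose and 4 were not called. The stretches of 60 bases that hold it before the gene start are shown for 6 genes that fell and for CCR1 and CCR2, which rose. They let the surroundings of the same element be compared. They were read from the TAIR10.1 genome, 5′ to 3′ on the strand of the gene, with each element in capitals, as AAAATATCT or as its reverse complement AGATATTTT.
FKF1, chr1:25508427-25508486, + strand: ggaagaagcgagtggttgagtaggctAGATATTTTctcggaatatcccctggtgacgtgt
BOA, chr5:24003819-24003878, + strand: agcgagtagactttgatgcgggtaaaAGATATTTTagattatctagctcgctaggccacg
COR27, chr5:17199916-17199975, - strand: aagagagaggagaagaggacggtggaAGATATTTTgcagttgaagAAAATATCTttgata
TOC1, chr5:24674786-24674845, + strand: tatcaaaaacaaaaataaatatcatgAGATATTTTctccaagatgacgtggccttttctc
PRR5, chr5:8358700-8358759, - strand: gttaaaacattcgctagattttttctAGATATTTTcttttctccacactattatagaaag
LUX, chr3:17182963-17183022, + strand: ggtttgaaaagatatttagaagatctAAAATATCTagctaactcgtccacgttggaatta
CCR1, chr4:18275217-18275276, - strand: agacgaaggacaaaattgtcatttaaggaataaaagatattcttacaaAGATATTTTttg
CCR2, chr2:9266600-9266659, - strand: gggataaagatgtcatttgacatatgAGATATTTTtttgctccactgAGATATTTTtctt
COR27, a cold-regulated repressor of evening genes with a pair of elements, fell, with means of 4.25 ± 0.131 FPKM in CCA1-ox shoots and 11.7 ± 0.6796 FPKM in WT shoots (log2 fold change −1.27 ± 0.086 SE, limma adjusted p = 1.80e-08). CCR2, another glycine-rich RNA-binding protein, was among the most abundant evening transcripts, at 1229.97 ± 11.1 FPKM in CCA1-ox shoots and 1122 ± 6.21 FPKM in WT shoots (log2 fold change 0.13). The same letters thus stood before genes that fell and genes that rose. In JMJD5 and in the locus AT4G33980 (log2 fold change −2.08) the element lay after the gene start, and those stretches are not shown.

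Over all promoters in the window, 550 of 18643 (2.95%) held the evening element. The share was 12 of 157 (7.64%) among genes at least 2-fold lower, and 39 of 791 (4.93%) among genes at least 2-fold higher. Those 12 include JMJD5, FKF1, BOA, AT4G33980, COR27 and TOC1 of the evening list, so this share is not separate from the counts of that list. Among all genes called higher the share was 242 of 5093 (4.75%), among those called lower 135 of 5975 (2.26%) and among those not called 173 of 7575 (2.28%). The CCA1-binding site AAAAATCT, which does not overlap the evening element, was in 5.73% of promoters of genes at least 2-fold lower and in 6.95% of those at least 2-fold higher, against 8.12% of all promoters. The G-box CACGTG, a site of bHLH and bZIP factors, lay in the promoters of 12 of 16 morning genes, against 8.76% of all genes. These shares are descriptions, and no test was made of them.

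**Figure D2:**
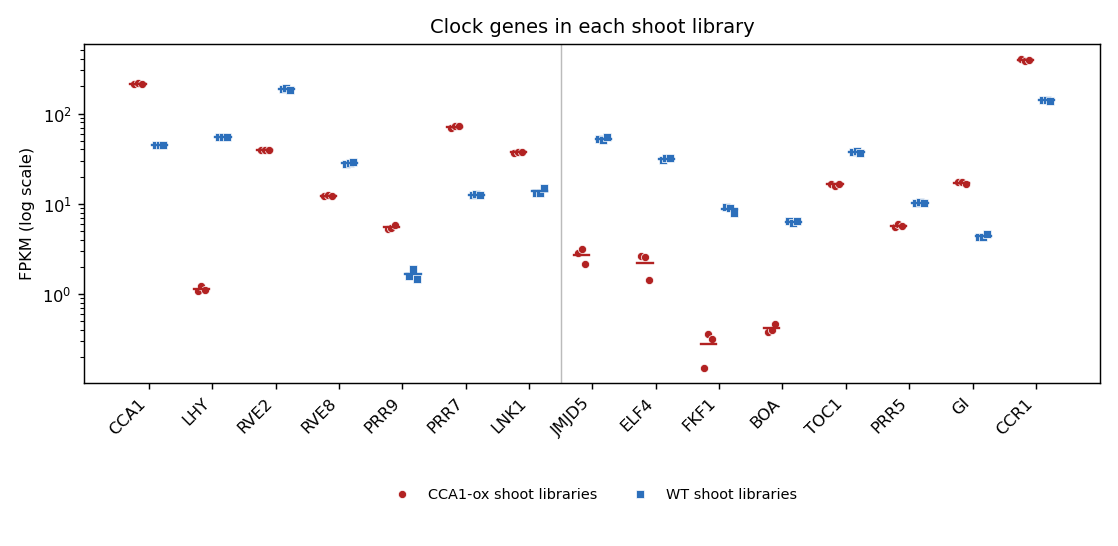
FPKM of clock genes in each shoot library on a log axis; red circles are the 3 CCA1-ox libraries, blue squares the 3 WT libraries and short lines their means, with morning genes left of the grey line and evening genes right of it. CCA1, PRR9, PRR7, LNK1, GI and CCR1 are higher in CCA1-ox and the other genes lower, and in no gene shown do the groups overlap.

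Genes of photosynthesis fell together and by modest amounts. All 26 tested chlorophyll synthesis genes were called lower, with a median log2 fold change of −0.43, against 32% of all genes. Abundant genes of any kind fell more often, 48.8% of those at 20 to 100 FPKM and 71.9% of those above 100 FPKM. The medians of these classes were −0.096 and −0.28, and the shares of the photosynthesis lists were not matched for level. HEMA1, glutamyl-tRNA reductase at the entry of the pathway, had 94.7, 96.8 and 95.9 FPKM in CCA1-ox shoots, against 159, 163 and 161 FPKM in WT shoots (log2 fold change −0.74 ± 0.027 SE, limma adjusted p = 2.04e-11). HEME1, a uroporphyrinogen decarboxylase, CHLM, the magnesium protoporphyrin methyltransferase, and CRD1, a subunit of the cyclase after it, had log2 fold changes of −0.63, −0.61 and −0.56. In the carotenoid pathway 13 of 14 genes fell (median −0.400), most of all the beta-carotene hydroxylase BCH2, with 10.3, 10.6 and 9.17 FPKM in CCA1-ox shoots, against 26.4, 24.8 and 26.01 FPKM in WT shoots (log2 fold change −1.28 ± 0.076 SE, limma adjusted p = 4.34e-09). PSY, phytoene synthase, which commits carbon to the pathway, fell less (102 ± 0.368 FPKM in CCA1-ox shoots and 158 ± 0.759 FPKM in WT shoots, −0.63).

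In the photosystems 22 of 24 nuclear subunit genes fell and 0 rose, with a median of −0.35. The plastocyanin PETE2 averaged 1713 ± 19.4 FPKM in CCA1-ox shoots and 2658 ± 20.4 FPKM in WT shoots and PSBQ1 of the oxygen-evolving complex 996 ± 6.63 FPKM in CCA1-ox shoots and 1519 ± 20.6 FPKM in WT shoots (log2 fold changes −0.63 and −0.61). In the Calvin cycle 17 of 18 genes fell (median −0.43), including the Rubisco small subunits RBCS2B, RBCS1B, RBCS3B and RBCS1A (log2 fold changes −0.76, −0.67, −0.59 and −0.42) and Rubisco activase, RCA (−0.54). All 11 tested genes of photorespiration fell too (median −0.39), the glycine decarboxylase gene GLDP2 most, at 114 ± 1.89 FPKM in CCA1-ox shoots and 211 ± 1.14 FPKM in WT shoots (−0.88). Under quantile normalization, which forces all libraries to the same distribution, the medians came nearer to 0, at −0.28 for chlorophyll synthesis, −0.088 for photosystem subunits, −0.18 for the Calvin cycle and −0.065 for photorespiration.

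The light-harvesting proteins were uneven. These antenna proteins bind chlorophyll around both photosystems and are encoded by small families of very similar genes. Of 18 genes 10 fell and 3 rose (median −0.22, and 0.064 under quantile normalization, where the sign turned). LHCB1.4 had 1277, 1288 and 1295 FPKM in CCA1-ox shoots, against 4212, 4320.3 and 4247 FPKM in WT shoots (log2 fold change −1.73 ± 0.030 SE, limma adjusted p = 5.70e-15), the only light-harvesting gene past 2-fold. LHCB1.3 (CAB1), the most abundant transcript of the shoot, had 11161, 11076 and 10869 FPKM in CCA1-ox shoots, against 17346, 17539 and 17439.7 FPKM in WT shoots (log2 fold change −0.66 ± 0.046 SE, limma adjusted p = 2.31e-08). LHCB1.5 was higher, at 8387 ± 114 FPKM in CCA1-ox shoots and 7111 ± 109 FPKM in WT shoots (log2 fold change 0.24). LHCB1.2 (CAB3) was higher as well, at 4679.6 ± 26.01 FPKM in CCA1-ox shoots and 3869 ± 44.7 FPKM in WT shoots (log2 fold change 0.27). The 5 LHCB1 copies thus differed in direction within 1 protein type, and fragments shared between near-identical copies make each copy's level uncertain. Of the 10 most abundant genes 6 fell (CAB1, RBCS1A, PSBR, RCA, LHCB5 and RBCS3B), 3 rose (LHCB1.5, CAB3 and LHCA1) and LHCA4 was not called.

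Among large gene families of basic cell work, ribosomal protein genes were mostly lower. Of 335 ribosomal protein genes 286 fell and 14 rose (median −0.32, and −0.21 with 252 lower when scaled to the summed fragments), with a range of log2 fold changes from −0.61 to 0.84. None of these genes fell or rose 2-fold, and 35 were not called. Level was not matched here either, and of all genes above 100 FPKM 71.9% fell, with a median of −0.28. The site II element TGGGCC, a sequence common in promoters of translation genes, lay in 180 of 335 (53.7%) of their promoters, against 19.6% of all promoters, 23.9% of those called lower and 12.4% of those called higher. Ribosomal protein genes with and without it had medians of −0.33 and −0.303. Of 43 histone genes 30 fell and 3 rose, and of 13 tubulin genes 10 fell and 1 rose. Scaled to the summed fragments, 24 histone genes were lower and 4 higher, and 9 tubulin genes lower and 2 higher. Of 41 proteasome subunit genes 26 fell and 2 rose, but 11 were lower and 6 higher when scaled to the summed fragments. For pentatricopeptide repeat proteins, which process organelle RNA, 90 of 239 genes were lower and 1 higher, a share near the 32% of all genes called lower. This count moved with the scaling, to 40 lower and 9 higher when scaled to the summed fragments and to 171 lower under quantile normalization. The linker histone HIS1-3, known as drought-inducible, rose, with 59.5, 57.8 and 53.98 FPKM in CCA1-ox shoots, against 9.21, 10.5 and 11.2 FPKM in WT shoots (log2 fold change 2.36 ± 0.060 SE, limma adjusted p = 3.78e-13). Of 78 tested plastid-encoded genes 23 fell and 5 rose, so that the share that fell was not above that of all genes.

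**Figure D3:**
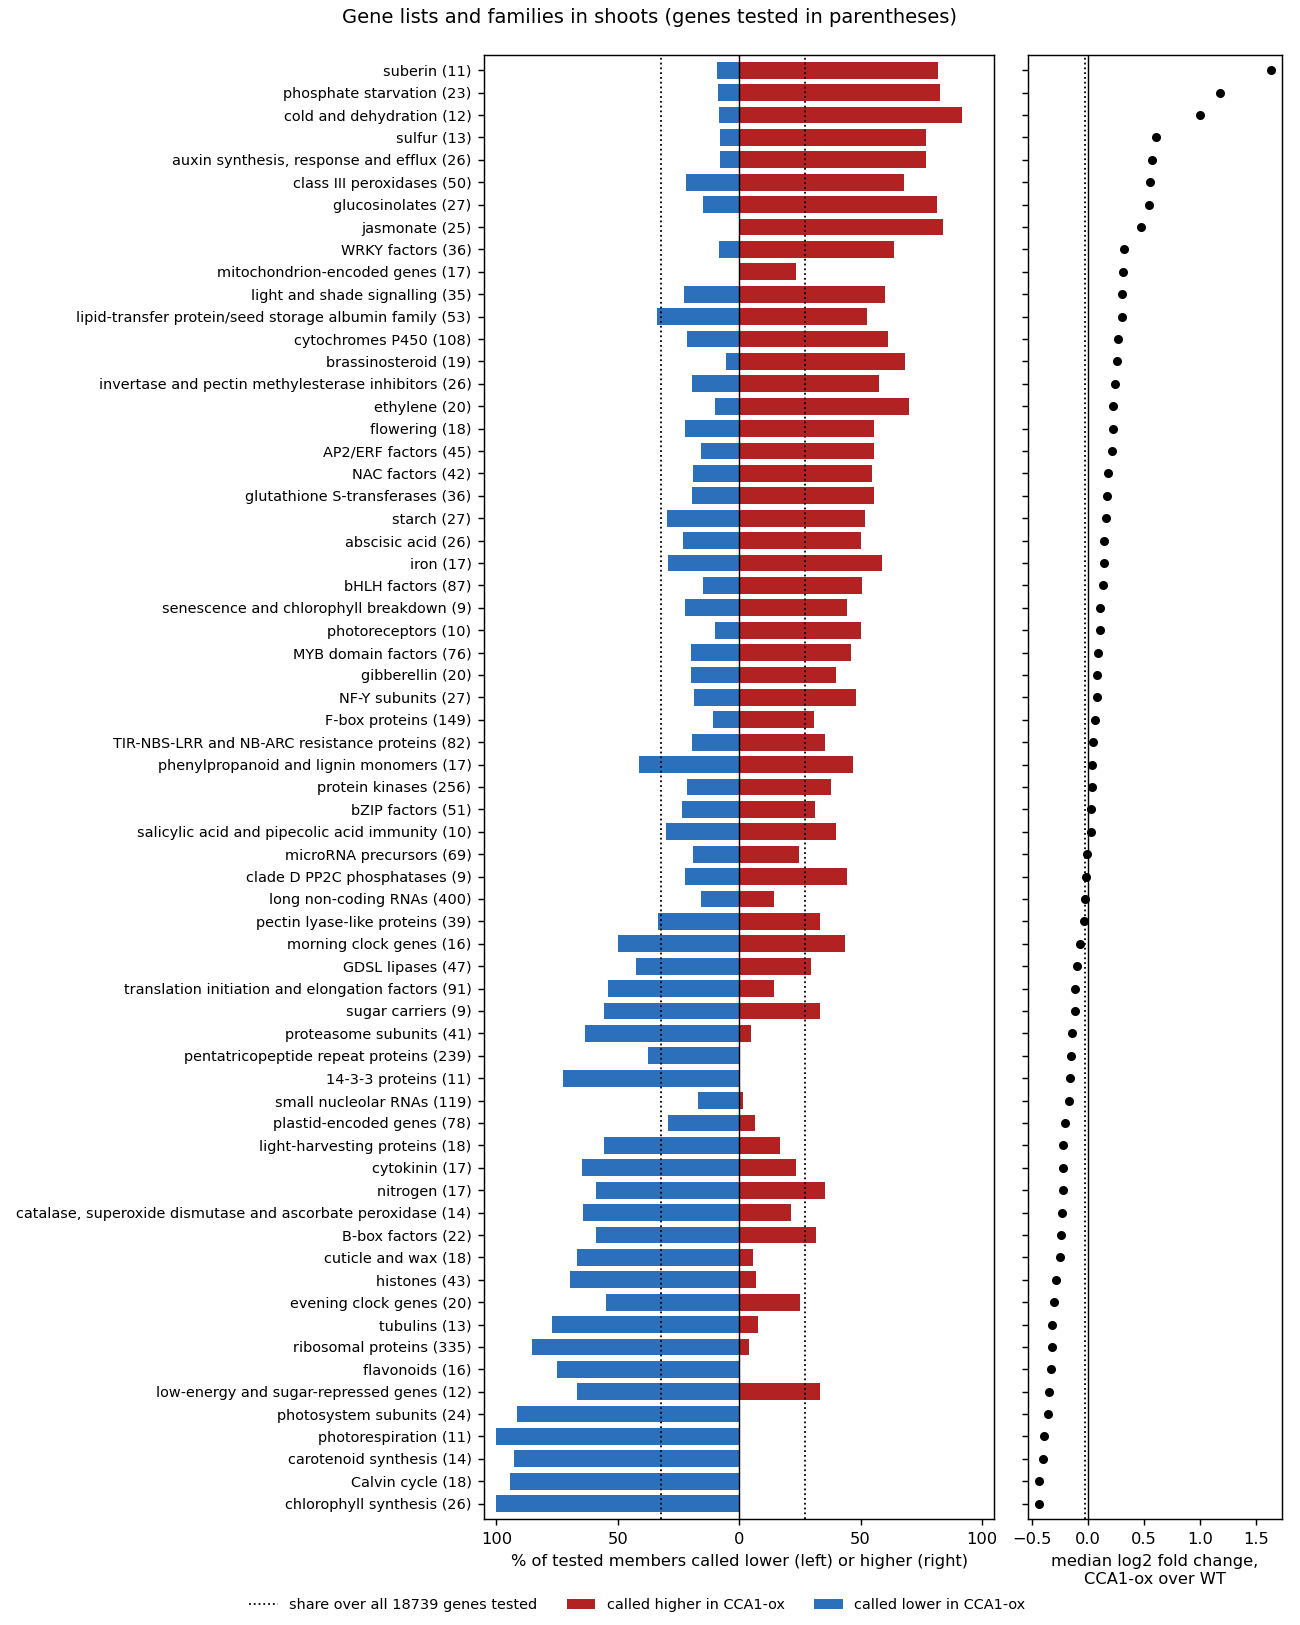
Share of tested members called lower (blue, to the left) or higher (red, to the right) in CCA1-ox shoots for gene lists and families, ordered by median log2 fold change, which is shown on the right; dotted lines give the shares (32% and 27.2%) and the median (−0.028) over all genes tested. Of the lists shown, suberin, phosphate starvation and cold genes have the highest medians (1.63, 1.17 and 1.002), and chlorophyll synthesis and the Calvin cycle the lowest (−0.43 and −0.43). The filter was passed only through CCA1-ox by 7 of 11 suberin, 8 of 23 phosphate and 3 of 12 cold genes. These had to be higher, which raises the 3 medians.

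Starch genes moved both ways. Starch is laid down in chloroplasts in the light and broken down at night by phosphorylating enzymes and amylases, most of whose transcripts cycle. Of 27 tested genes 14 rose and 8 fell (median 0.17). Higher were AMY3, a plastid alpha-amylase, with 72.7, 73.4 and 72.4 FPKM in CCA1-ox shoots, against 28.7, 30.1 and 29.1 FPKM in WT shoots (log2 fold change 1.28 ± 0.036 SE, limma adjusted p = 1.03e-12), the phosphatase SEX4 (44.5 ± 1.56 FPKM in CCA1-ox shoots and 22.9 ± 1.26 FPKM in WT shoots, 0.93) and the glucan, water dikinase GWD1 (75.2 ± 2.38 FPKM in CCA1-ox shoots and 41.4 ± 0.374 FPKM in WT shoots, 0.85). Lower were GBSS1, the granule-bound synthase that makes amylose, with 29.2, 28.7 and 29.9 FPKM in CCA1-ox shoots, against 60.1, 59.2 and 56.9 FPKM in WT shoots (log2 fold change −0.98 ± 0.073 SE, limma adjusted p = 4.44e-08), and the beta-amylase genes BAM9 (−1.36) and BAM3 (−0.92). GWD1 and BAM3 fall outside the rule for named genes.

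Genes that plants repress by sugar and raise in the dark were mostly lower, 8 of 12 tested with 4 higher (median −0.34). DIN10, a raffinose synthase family gene induced by darkness, had 20.6, 21.3 and 21.1 FPKM in CCA1-ox shoots, against 83.9, 85.2 and 86.7 FPKM in WT shoots (log2 fold change −1.97 ± 0.032 SE, limma adjusted p = 2.90e-15). The dormancy-associated DRM2 had 51.8, 49.4 and 46.8 FPKM in CCA1-ox shoots, against 192, 196 and 196 FPKM in WT shoots (log2 fold change −1.96 ± 0.032 SE, limma adjusted p = 2.94e-15). Both were about 4 times lower in mean FPKM with no overlap. Among sugar carriers SWEET2, a vacuolar transporter, fell, with means of 4.61 ± 0.363 FPKM in CCA1-ox shoots and 22.4 ± 1.68 FPKM in WT shoots (log2 fold change −2.06 ± 0.058 SE, limma adjusted p = 1.11e-12), and SWEET17, a vacuolar fructose carrier, rose, with means of 46.3 ± 0.605 FPKM in CCA1-ox shoots and 16.02 ± 0.792 FPKM in WT shoots (log2 fold change 1.47 ± 0.044 SE, limma adjusted p = 2.28e-12).

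Of 16 tested copper-related transcripts 11 rose and 4 fell, and 3 of those tested passed the filter only through CCA1-ox. When copper is short, plants make the microRNAs miR398, miR397, miR408 and miR857, and miR398 is known to cut the transcripts of the copper/zinc superoxide dismutases CSD1 and CSD2 and of their copper chaperone CCS. These transcripts were grouped after their values were seen, and the libraries report the precursors, not the mature microRNAs. The precursor of miR398b had 108, 118 and 116 FPKM in CCA1-ox shoots, against 49.2, 43.3 and 40.8 FPKM in WT shoots (log2 fold change 1.35 ± 0.13 SE, limma adjusted p = 1.04e-06). The precursor of miR398c, at 11.5 ± 4.38 FPKM in CCA1-ox shoots and 2.73 ± 1.41 FPKM in WT shoots (log2 fold change 1.76 ± 0.27 SE, limma adjusted p = 6.11e-05), miR408 (0.97) and miR857 (0.98) were higher too. The miR857 precursor was low, at 1.64 ± 0.604 FPKM in CCA1-ox shoots and 0.337 ± 0.263 FPKM in WT shoots. Both miR857 and miR397b precursors passed the filter only through CCA1-ox and so had to be higher. The miR397b precursor stood at 2.303 ± 1.08 FPKM in CCA1-ox shoots and 0.234 ± 0.229 FPKM in WT shoots, with 3 fragments in all WT libraries together. CSD2 had 41.3, 37.2 and 35.4 FPKM in CCA1-ox shoots, against 126, 128 and 139 FPKM in WT shoots (log2 fold change −1.76 ± 0.050 SE, limma adjusted p = 1.21e-12). CSD1 had 55.3, 54.1 and 53.4 FPKM in CCA1-ox shoots, against 111, 116 and 116 FPKM in WT shoots (log2 fold change −1.06 ± 0.029 SE, limma adjusted p = 7.52e-13). CCS fell, with means of 19.8 ± 0.1502 FPKM in CCA1-ox shoots and 35.6 ± 0.958 FPKM in WT shoots (log2 fold change −0.82 ± 0.029 SE, limma adjusted p = 1.66e-11). In each of these the CCA1-ox libraries lay on 1 side of all WT libraries.

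The mature 3′ arms of miR398 share a seed, and the annotated genome holds their stretches of complementarity in the targets. Bases 2 to 8 of the microRNA, its seed, are in capitals, and in the target sites capitals mark bases that pair with miR398b-3p when the strands are laid side by side without gaps.
miR398b-3p, chr5:4691107-4691127, + strand: tGTGTTCTcaggtcacccctg
miR398c-3p, chr5:4694778-4694798, + strand: tGTGTTCTcaggtcacccctg
miR398a-3p, chr2:1041012-1041032, + strand: tGTGTTCTcaggtcacccctt
CSD1 site, chr1:2827177-2827685, + strand: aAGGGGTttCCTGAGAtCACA
CSD2 site, chr2:12015572-12015592, + strand: tgcGGGTGACCTGgGAAacat
CCS site, chr1:4267521-4267541, - strand: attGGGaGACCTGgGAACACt
The letters are DNA, with T for U, from TAIR10.1. Pairing covered 17 of 21 bases in CSD1, in the 5′ untranslated region across an exon junction. It covered 13 of 21 in CSD2 and 15 of 21 in CCS, both within coding sequence. The precursors of miR398b and miR398c give the same mature 3′ arm. Among other genes of copper use, the iron superoxide dismutase FSD1, which replaces CSD2 in chloroplasts when copper is short, rose slightly (324 ± 6.45 FPKM in CCA1-ox shoots and 277 ± 3.36 FPKM in WT shoots, 0.23), and the chaperone CCH rose (193 ± 1.54 FPKM in CCA1-ox shoots and 124 ± 5.55 FPKM in WT shoots, 0.63). Of transcripts known as miR408 targets, plantacyanin, ARPN, fell (−0.66) and the laccases LAC3 and LAC12 rose (1.32 and 1.07). The copper regulator SPL7 was nearly level (15.3 ± 0.227 FPKM in CCA1-ox shoots and 14.1 ± 0.323 FPKM in WT shoots, 0.11).

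Among the 14 tested genes for catalases, superoxide dismutases and ascorbate peroxidases, which remove hydrogen peroxide and superoxide, 9 fell and 3 rose. The catalases, whose transcripts peak at opposite times of day in plants, diverged. CAT3, the evening catalase, had 709.8, 715 and 705 FPKM in CCA1-ox shoots, against 302, 298 and 299 FPKM in WT shoots (log2 fold change 1.24 ± 0.020 SE, limma adjusted p = 2.85e-15). CAT2, the morning catalase, had 172, 165 and 167 FPKM in CCA1-ox shoots, against 379, 377 and 382 FPKM in WT shoots (log2 fold change −1.17 ± 0.026 SE, limma adjusted p = 1.06e-13). CAT3 was higher and CAT2 lower in every CCA1-ox library.

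Phosphate starvation genes had the highest median fold change of the nutrient lists. Plants short of phosphate make miR399, which cuts the transcript of PHO2, an enzyme that removes phosphate carriers, and they make non-coding RNAs of the IPS1 and AT4 type that hold miR399 without being cut. Of 23 tested genes of 27, 19 rose and 2 fell (median 1.17), and 8 of those tested passed the filter only through CCA1-ox. AT4 (AT5G03545) had 153, 141 and 134 FPKM in CCA1-ox shoots, against 0.565, 0.171 and 0.399 FPKM in WT shoots (log2 fold change 6.71 ± 0.086 SE, limma adjusted p = 3.39e-16), the highest fold change of all genes on the log2(FPKM + 1) scale. IPS1 had 7.97, 6.49 and 6.44 FPKM in CCA1-ox shoots, against 0.0513, 0 and 0 FPKM in WT shoots, and was thus listed at 0 in WT libraries apart from the first. PS2, a pyrophosphatase, had 10.7, 10.6 and 11.1 FPKM in CCA1-ox shoots, against 0.0213, 0.102 and 0.0571 FPKM in WT shoots. SPX1, a phosphate sensor, had 32.6, 32.4 and 31.2 FPKM in CCA1-ox shoots, against 5.67, 7.42 and 7.19 FPKM in WT shoots (log2 fold change 2.098 ± 0.075 SE, limma adjusted p = 1.72e-11), and PHO1, a phosphate exporter, 25.8 ± 0.382 FPKM in CCA1-ox shoots and 6.89 ± 0.195 FPKM in WT shoots (log2 fold change 1.77 ± 0.029 SE, limma adjusted p = 3.79e-15). The phosphodiesterase GDPD1 (2.58), the galactolipid synthase MGD3 (1.99) and the acid phosphatase PAP17 (1.87) rose in the same way. PHO2 was higher as well, with 69.96, 74.2 and 70.8 FPKM in CCA1-ox shoots, against 32.7, 32.5 and 33.05 FPKM in WT shoots (log2 fold change 1.11 ± 0.033 SE, limma adjusted p = 2.05e-12). The regulator PHR1 fell slightly (29.1 ± 0.566 FPKM in CCA1-ox shoots and 35.3 ± 0.923 FPKM in WT shoots, −0.27), and the carriers PHT1;1 and PHT1;2 stayed below the filter in both groups.

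The stretch that pairs with miR399 is laid out differently in AT4 and IPS1 than in PHO2, and is shown with bases that pair with the microRNA in capitals. In AT4 and IPS1 the site was aligned with 3 unpaired bases opposite the step between microRNA bases 10 and 11, where cutting occurs. The PHO2 stretch lies in the 5′ untranslated region and pairs without a gap.
miR399b, chr1:23345387-23345407, - strand: tGCCAAAGgagagttgccctg
AT4 site, chr5:895149-895172, + strand: ttGGGCAACTtcgaTCCTTTGGCA
IPS1 site, chr3:3051224-3051247, + strand: ttGGGCAACTtctaTCCTTTGGCA
miR399d, chr2:14442988-14443008, - strand: tGCCAAAGgagatttgccccg
PHO2 site, chr2:14281884-14281904, - strand: ttGGGCAAATCTCCTTTGGCA
Pairing covered 18 of 21 bases of miR399b in AT4 and 18 of 21 in IPS1, and 19 of 21 of miR399d in PHO2. The annotation places the AT4 and IPS1 stretches in short coding sequences. None of the 6 miR399 precursors passed the filter. Their levels in these libraries were 0 or close to it, the highest group mean being 0.386 FPKM for miR399c in CCA1-ox shoots, where WT shoots were at 0.

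The NF-YA genes, which encode the DNA-binding subunit of the trimeric factor NF-Y, all rose. Several of them are known targets of miR169, and this group was formed after its values were seen. All 10 NF-YA genes were called higher, with log2 fold changes from 0.32 (NF-YA9) to 1.83 (NF-YA2). NF-YA10 passed the filter only through CCA1-ox and so had to be higher. NF-YA2 had 20.6, 21.3 and 23.3 FPKM in CCA1-ox shoots, against 6.22, 5.14 and 4.796 FPKM in WT shoots (log2 fold change 1.83 ± 0.075 SE, limma adjusted p = 7.69e-11). NF-YA10 had 3.68, 4.32 and 3.17 FPKM in CCA1-ox shoots, against 0.275, 0.629 and 0.445 FPKM in WT shoots (log2 fold change 1.703 ± 0.11 SE, limma adjusted p = 1.47e-08). The 3 miR169 precursors past the filter, of 14, were lower: miR169k averaged 2.47 ± 0.397 FPKM in CCA1-ox shoots and 5.88 ± 1.48 FPKM in WT shoots, miR169m 1.96 ± 0.694 FPKM in CCA1-ox shoots and 3.71 ± 0.517 FPKM in WT shoots and miR169a 1.55 ± 0.467 FPKM in CCA1-ox shoots and 2.86 ± 0.687 FPKM in WT shoots (log2 fold changes −0.97, −0.69 and −0.602). These calls rest on few fragments. Under voom miR169m and miR169a were no longer called (adjusted p = 0.061 and 0.086), and without the third CCA1-ox library miR169a was not (limma adjusted p = 0.096). Without the third WT library it was not called either (limma adjusted p = 0.091). Their mature 5′ arms share the seed AGCCAAG, in capitals in both examples.
miR169a-5p, chr3:4359182-4359202, - strand: cAGCCAAGgatgacttgccga
miR169m, chr3:9878318-9878338, - strand: tAGCCAAGgatgacttgcctg
Of all 69 microRNA precursors tested, 17 rose and 13 fell, and 3 passed the filter only through CCA1-ox. Precursors of miR160c, which targets auxin response factors, and of miR156a, which delays the change to adult leaves, rose (log2 fold changes 1.62 and 1.18), and those of miR841b and miR841a fell most (−2.29 and −1.902).

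**Figure D4:**
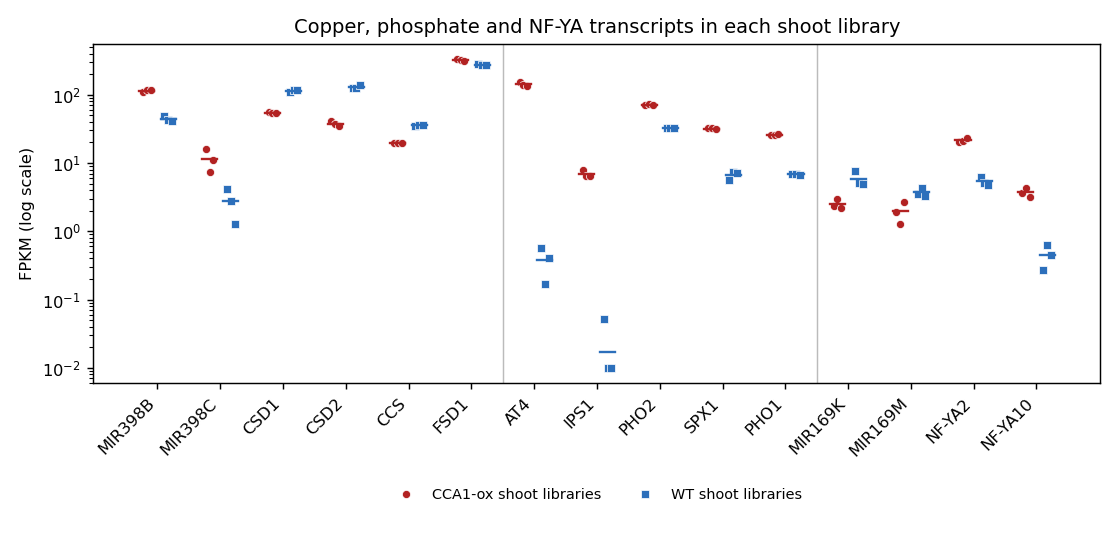
FPKM in each shoot library, on a log axis, of copper-related transcripts (left), phosphate starvation transcripts (middle) and miR169 precursors with NF-YA genes (right); red circles are CCA1-ox libraries, blue squares WT libraries and short lines group means, with a listed 0 drawn at 0.01 FPKM. CSD1, CSD2, CCS and the miR169 precursors are lower in CCA1-ox and the rest higher, and in no gene shown do the groups overlap.

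Sulfur starvation genes rose in 10 of 13 tested cases (median 0.61), of which LSU1 passed the filter only through CCA1-ox. LSU1, a small protein induced by low sulfur, had 13.1, 13.2 and 14.95 FPKM in CCA1-ox shoots, against 0.2198, 0.121 and 0.0562 FPKM in WT shoots (log2 fold change 3.702 ± 0.084 SE, limma adjusted p = 1.09e-13), and SDI1, which slows the use of sulfur for glucosinolates, 7.25 ± 0.844 FPKM in CCA1-ox shoots and 1.304 ± 0.165 FPKM in WT shoots (log2 fold change 1.84 ± 0.081 SE, limma adjusted p = 1.65e-10). APS reductases, which commit sulfate to reduction, diverged: APR1 averaged 72.8 ± 2.54 FPKM in CCA1-ox shoots and 31.6 ± 0.525 FPKM in WT shoots and APR2 48.4 ± 0.847 FPKM in CCA1-ox shoots and 101 ± 2.21 FPKM in WT shoots (log2 fold changes 1.18 and −1.05), while APR3, at 63.5 ± 1.24 FPKM in CCA1-ox shoots and 63.7 ± 2.04 FPKM in WT shoots, was not called. Nitrogen genes were mixed, with 6 higher and 10 lower of 17. The nitrate reductase NIA2 fell (205 ± 2.198 FPKM in CCA1-ox shoots and 361 ± 2.98 FPKM in WT shoots, −0.81), and the nitrate carriers NRT1.5 and NRT1.1 rose (1.09 and 0.73). In the iron list 10 of 17 rose and 5 fell, and 1 of those tested passed the filter only through CCA1-ox. The locus AT1G47395 had 108 ± 6.23 FPKM in CCA1-ox shoots and 50.1 ± 2.71 FPKM in WT shoots (1.096), the iron regulator BHLH38 62.4 ± 1.41 FPKM in CCA1-ox shoots and 34.1 ± 0.751 FPKM in WT shoots (0.85), and the ferritin FER3, an iron store, fell (−0.48).

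Genes of the apoplastic barriers moved apart. Suberin is the lipid polyester of the root endodermis and of wound and seed tissues, and cutin and wax cover the shoot. Of 11 tested suberin genes 9 rose and 1 fell (median 1.63), and 7 of those tested passed the filter only through CCA1-ox. CYP86A1, the fatty acid hydroxylase of suberin, had 12.3, 11.99 and 13.2 FPKM in CCA1-ox shoots, against 0.418, 0.745 and 0.695 FPKM in WT shoots (log2 fold change 3.06 ± 0.065 SE, limma adjusted p = 5.13e-14). The acyltransferase GPAT5 averaged 2.49 ± 0.0501 FPKM in CCA1-ox shoots and 0.0693 ± 0.0379 FPKM in WT shoots (log2 fold change 1.71), and the feruloyl transferase ASFT averaged 8.44 ± 0.106 FPKM in CCA1-ox shoots and 2.06 ± 0.369 FPKM in WT shoots (log2 fold change 1.63). In the cuticle list 12 of 18 tested genes fell and 1 rose (median −0.25). The long-chain acyl-CoA synthetase LACS1 had 35.2, 35.4 and 35.4 FPKM in CCA1-ox shoots, against 56.9, 58.3 and 57.6 FPKM in WT shoots (log2 fold change −0.69 ± 0.050 SE, limma adjusted p = 3.46e-08). The wax gene CER2 and the cutin gene DCR had log2 fold changes of −0.56 and −0.55. The endodermis markers rose beside the suberin genes; CASP1, which builds the Casparian strip, averaged 11.7 ± 2.101 FPKM in CCA1-ox shoots and 4.78 ± 0.918 FPKM in WT shoots (1.14), and PER64, its peroxidase, 7.62 ± 0.629 FPKM in CCA1-ox shoots and 1.98 ± 0.471 FPKM in WT shoots (1.54). The part of cell composition in the suberin rise was not tested.

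Class III peroxidases are secreted enzymes that cross-link lignin and wall proteins. Of 50 tested 34 were higher and 11 lower (median 0.55), with 17 at least 2-fold higher against 4.22% of all genes, and 9 of those tested passed only through CCA1-ox. AT3G32980 had 122, 116 and 118 FPKM in CCA1-ox shoots, against 6.68, 7.18 and 7.76 FPKM in WT shoots (log2 fold change 3.87 ± 0.039 SE, limma adjusted p = 4.91e-17). AT2G37130 averaged 73.7 ± 3.302 FPKM in CCA1-ox shoots and 4.57 ± 0.737 FPKM in WT shoots, and AT2G38380 23.96 ± 0.546 FPKM in CCA1-ox shoots and 0.625 ± 0.208 FPKM in WT shoots (log2 fold changes 3.75 and 3.95). These 3 are abundant in WT roots, with means of 412, 539 and 151 FPKM. The lipid-transfer protein family had 28 higher and 18 lower of 53, 16 of them at least 2-fold higher, and 8 of those tested passed only through CCA1-ox. AT3G53980 of this family averaged 99.5 ± 2.88 FPKM in CCA1-ox shoots and 5.21 ± 0.4101 FPKM in WT shoots (log2 fold change 4.02). Genes for lignin monomers were divided, 8 higher and 7 lower of 17; 4CL3, the ligase that feeds flavonoids, fell, with means of 2.32 ± 0.368 FPKM in CCA1-ox shoots and 7.32 ± 0.738 FPKM in WT shoots (−1.33). None of 16 tested flavonoid genes rose and 12 fell (median −0.33). Chalcone synthase, CHS, at the pathway's entry, had 12.7, 12.8 and 12.7 FPKM in CCA1-ox shoots, against 35.7, 36.8 and 35.9 FPKM in WT shoots (log2 fold change −1.44 ± 0.044 SE, limma adjusted p = 3.02e-12), and F3H and FLS1 of the following steps fell in like measure (−1.21 and −1.17).

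Of 25 tested jasmonate genes 21 rose and none fell, apart from JAZ10 under quantile normalization (median 0.47). The filter was passed only through CCA1-ox by 3 of those tested, which had to be higher. Jasmonate is made from plastid lipids through LOX, AOS, AOC and OPR3 and acts against insects and on growth through MYC factors and their JAZ repressors. VSP2, a storage phosphatase that is a standard jasmonate marker, had 33.04, 33.3 and 34.9 FPKM in CCA1-ox shoots, against 2.15, 2.17 and 1.51 FPKM in WT shoots (log2 fold change 3.57 ± 0.087 SE, limma adjusted p = 2.26e-13). Synthesis genes rose with AOC2 at 109 ± 4.39 FPKM in CCA1-ox shoots and 28.5 ± 1.31 FPKM in WT shoots (log2 fold change 1.905 ± 0.074 SE, limma adjusted p = 4.03e-11) and LOX2 at 145 ± 2.89 FPKM in CCA1-ox shoots and 54.7 ± 1.34 FPKM in WT shoots (log2 fold change 1.39 ± 0.041 SE, limma adjusted p = 1.94e-12). MYC2, the regulator, averaged 18.2 ± 0.211 FPKM in CCA1-ox shoots and 8.64 ± 0.621 FPKM in WT shoots (0.997), and the repressor JAZ1 4.35 ± 0.403 FPKM in CCA1-ox shoots and 1.09 ± 0.227 FPKM in WT shoots (1.36), while JAZ10, at 1.77 ± 0.113 FPKM in CCA1-ox shoots and 1.76 ± 0.0989 FPKM in WT shoots, was not called. Groups did not overlap in any of the called genes named here.

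Glucosinolates, the sulfur-rich defence compounds of crucifers, also had mostly higher transcripts, 22 of 27 with 4 lower (median 0.55). Among those tested 2, MAM3 included, passed the filter only through CCA1-ox. MAM3, listed as IMS2, which lengthens the side chain of methionine, had 24.9, 25.5 and 24.8 FPKM in CCA1-ox shoots, against 0.654, 0.7596 and 0.913 FPKM in WT shoots (log2 fold change 3.88 ± 0.046 SE, limma adjusted p = 1.17e-16). CYP79F2, which acts on the long-chain products, had 28.99, 28.0 and 27.8 FPKM in CCA1-ox shoots, against 6.96, 6.63 and 7.02 FPKM in WT shoots (log2 fold change 1.895 ± 0.041 SE, limma adjusted p = 5.94e-14). In the branch from tryptophan CYP79B2, CYP79B3 and the regulator MYB34 rose (log2 fold changes 1.396, 1.13 and 1.23). The myrosinases, which release the toxic products, fell: TGG2 averaged 68.8 ± 4.31 FPKM in CCA1-ox shoots and 162 ± 2.19 FPKM in WT shoots (log2 fold change −1.23 ± 0.048 SE, limma adjusted p = 4.00e-11) and TGG1 899 ± 6.02 FPKM in CCA1-ox shoots and 1162 ± 10.2 FPKM in WT shoots (−0.37). Myrosinase-binding protein MBP1 was among the highest rises, with 100.5, 106 and 104 FPKM in CCA1-ox shoots, against 3.78, 4.18 and 4.82 FPKM in WT shoots (log2 fold change 4.32 ± 0.069 SE, limma adjusted p = 2.90e-15), and averaged 0.0828 FPKM in WT roots.

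Other defence groups were less uniform. Of 36 tested WRKY transcription factors 23 rose and 3 fell (median 0.32), and 4 of those tested passed the filter only through CCA1-ox. Genes of salicylic and pipecolic acid immunity were divided, 4 higher and 3 lower of 10, with the markers PR1 and PR2 below the filter. Of the 10 defensins 6 were below the filter, and of the 4 tested 1 rose and 2 fell (median −0.057). The abundant LCR69 fell slightly (433 ± 14.5 FPKM in CCA1-ox shoots and 484 ± 9.58 FPKM in WT shoots, −0.16), as did LCR68 (−0.31). The defensin PDF2.1 rose (9.82 ± 1.87 FPKM in CCA1-ox shoots and 0.374 ± 0.119 FPKM in WT shoots, log2 fold change 2.97 ± 0.11 SE, limma adjusted p = 2.03e-11). PDF2.1 passed the filter only through CCA1-ox. Major latex proteins, small proteins of the ligand-binding Bet v 1 fold, rose in 5 of 7 tested cases. MLP34 had 291, 297 and 289.6 FPKM in CCA1-ox shoots, against 3.58, 2.56 and 3.08 FPKM in WT shoots (log2 fold change 6.18 ± 0.065 SE, limma adjusted p = 4.91e-17). MLP43 had 794, 796 and 769 FPKM in CCA1-ox shoots, against 168, 167 and 161 FPKM in WT shoots (log2 fold change 2.24 ± 0.034 SE, limma adjusted p = 1.80e-15). MLP165 averaged 35.5 ± 2.18 FPKM in CCA1-ox shoots and 3.36 ± 0.4897 FPKM in WT shoots (3.07).

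Among growth regulators, brassinosteroid and auxin genes were mostly higher, and more cytokinin genes fell than rose. Brassinosteroids set cell elongation, and 13 of 19 of their genes were higher and 1 lower (median 0.26), with ROT3, a P450 of the late synthesis steps, at 13.5 ± 0.757 FPKM in CCA1-ox shoots and 3.63 ± 0.113 FPKM in WT shoots (log2 fold change 1.64 ± 0.062 SE, limma adjusted p = 3.13e-11) and the receptor gene BRI1 at 60.02 ± 1.09 FPKM in CCA1-ox shoots and 43.02 ± 0.828 FPKM in WT shoots (0.47). Auxin genes rose in 20 of 26 (median 0.57): the synthesis gene YUC8 averaged 5.63 ± 0.399 FPKM in CCA1-ox shoots and 0.723 ± 0.204 FPKM in WT shoots (log2 fold change 1.95 ± 0.088 SE, limma adjusted p = 2.14e-10) and the repressor gene IAA29 10.4 ± 0.101 FPKM in CCA1-ox shoots and 2.86 ± 0.335 FPKM in WT shoots (log2 fold change 1.56 ± 0.081 SE, limma adjusted p = 1.04e-09). Among the tested auxin genes 2 passed the filter only through CCA1-ox. Cytokinin genes fell in 11 of 17 and rose in 4 (median −0.22), while 8 were lower when scaled to the summed fragments and 7 under voom, with 4 higher in both. The response regulators ARR7 and ARR15, early cytokinin targets, fell. ARR7 had 8.23, 8.38 and 8.63 FPKM in CCA1-ox shoots, against 20.7, 21.6 and 18.5 FPKM in WT shoots (log2 fold change −1.17 ± 0.065 SE, limma adjusted p = 1.88e-09). ARR15 had 1.25, 0.577 and 0.619 FPKM in CCA1-ox shoots, against 3.197, 2.798 and 2.38 FPKM in WT shoots (log2 fold change −1.08 ± 0.13 SE, limma adjusted p = 4.93e-06). LOG7, which releases active cytokinin, rose (0.89).

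Ethylene genes rose in 14 of 20 cases (median 0.23). In this and the next 2 lists, 1 ethylene, 2 abscisic acid and 1 gibberellin gene passed the filter only through CCA1-ox. Abscisic acid genes rose in 13 of 26 and fell in 6 (median 0.14): the catabolic CYP707A2 and the phosphatase HAI1 rose (1.13 and 1.05) and the receptor gene PYL8 fell (26.4 ± 0.713 FPKM in CCA1-ox shoots and 40.97 ± 0.934 FPKM in WT shoots, −0.61). Gibberellin genes were divided, 8 higher and 4 lower of 20 (median 0.086); the gibberellin-responsive GASA1 fell, with means of 29.5 ± 3.08 FPKM in CCA1-ox shoots and 65.8 ± 1.24 FPKM in WT shoots (log2 fold change −1.14 ± 0.055 SE, limma adjusted p = 4.30e-10).

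Of 35 genes of light and shade signalling 21 were higher and 8 lower (median 0.31). HFR1, an atypical bHLH protein that holds back PIF factors in shade, had 65.4, 63.96 and 64.7 FPKM in CCA1-ox shoots, against 4.92, 5.09 and 4.796 FPKM in WT shoots (log2 fold change 3.47 ± 0.052 SE, limma adjusted p = 1.56e-15). PIF4, which drives elongation, had 72.5, 73.5 and 73.3 FPKM in CCA1-ox shoots, against 18.2, 18.7 and 18.8 FPKM in WT shoots (log2 fold change 1.92 ± 0.050 SE, limma adjusted p = 4.52e-13). HYH and HY5, bZIP factors of the light response, fell (log2 fold changes −1.25 and −0.51); HYH averaged 11.2 ± 0.522 FPKM in CCA1-ox shoots and 27.9 ± 1.45 FPKM in WT shoots. Of 10 photoreceptor genes 5 rose and 1 fell, none past 2-fold. The B-box family, zinc-finger factors of light and flowering, was split, with 13 lower and 7 higher of 22. Of the 22, 2 passed the filter only through WT and so had to be lower. COL2 had 11.7, 11.5 and 11.7 FPKM in CCA1-ox shoots, against 46.2, 48.9 and 47.5 FPKM in WT shoots (log2 fold change −1.94 ± 0.083 SE, limma adjusted p = 1.10e-10). COL5 had 126, 122 and 123 FPKM in CCA1-ox shoots, against 39.5, 39.3 and 40.01 FPKM in WT shoots (log2 fold change 1.62 ± 0.042 SE, limma adjusted p = 4.58e-13).

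In the flowering list 10 of 18 rose and 4 fell, and 1 of those tested passed the filter only through CCA1-ox. FT, the mobile flowering signal, was listed at 0 in all 3 CCA1-ox libraries and at 1.08, 0.7399 and 1.15 FPKM in WT shoots, below the filter. The repressor FLC had 17.8, 17.4 and 18.2 FPKM in CCA1-ox shoots, against 7.03, 6.45 and 7.01 FPKM in WT shoots (log2 fold change 1.27 ± 0.090 SE, limma adjusted p = 3.07e-08), and SVP, its partner, averaged 65.5 ± 0.8797 FPKM in CCA1-ox shoots and 36.6 ± 1.32 FPKM in WT shoots (0.82). The integrator SOC1, which both repress, fell, with means of 4.91 ± 0.285 FPKM in CCA1-ox shoots and 9.55 ± 0.5699 FPKM in WT shoots (log2 fold change −0.84 ± 0.074 SE, limma adjusted p = 2.84e-07). CDF3 and the locus AT1G69570, DOF factors of the family that FKF1 marks for breakdown, rose (1.402 and 1.604).

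Cold and dehydration genes rose in 11 of 12 tested cases (median 1.002), with 3 of those tested past the filter only through CCA1-ox. COR15A, a chloroplast protein that protects membranes in frost, had 40.6, 38.7 and 39.1 FPKM in CCA1-ox shoots, against 10.3, 9.58 and 10.2 FPKM in WT shoots (log2 fold change 1.87 ± 0.054 SE, limma adjusted p = 1.52e-12), and the dehydrin LTI30 averaged 6.19 ± 1.13 FPKM in CCA1-ox shoots and 1.19 ± 0.201 FPKM in WT shoots (1.71). Their regulators CBF1, CBF2 and CBF3 were below the filter in both groups, and the CBF activator ICE1 fell (26.4 ± 0.155 FPKM in CCA1-ox shoots and 34.5 ± 1.04 FPKM in WT shoots, −0.38).

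The proton pump genes of the plasma membrane, the subject of the study's title, moved little. These AHA pumps drive uptake and acid growth, 14-3-3 proteins hold them active and clade D PP2C phosphatases switch them off. Of 7 tested pump genes none rose and 3 fell (median −0.18), AHA3 most, at 37.9 ± 1.15 FPKM in CCA1-ox shoots and 47.7 ± 0.358 FPKM in WT shoots (log2 fold change −0.32 ± 0.040 SE, limma adjusted p = 8.58e-06). AHA1, the most abundant, averaged 139 ± 1.304 FPKM in CCA1-ox shoots and 144 ± 1.74 FPKM in WT shoots. AHA2, the next, averaged 81.5 ± 1.42 FPKM in CCA1-ox shoots and 81.6 ± 0.876 FPKM in WT shoots. Neither was called, but both were called higher with values scaled to the summed fragments (log2 fold changes 0.058 and 0.11), so that their direction depends on the scaling. Of 11 tested 14-3-3 genes 8 fell, GRF11 alone past 2-fold, with 7.204, 8.77 and 6.52 FPKM in CCA1-ox shoots, against 20.4, 17.4 and 18.7 FPKM in WT shoots (log2 fold change −1.23 ± 0.091 SE, limma adjusted p = 4.57e-08). Scaled to the summed fragments, 5 of the 14-3-3 genes were lower and 2 higher, with the same counts under quantile normalization. Of 9 clade D phosphatases 4 rose and 2 fell: AT5G66080 averaged 11.1 ± 0.0474 FPKM in CCA1-ox shoots and 4.41 ± 0.367 FPKM in WT shoots (log2 fold change 1.16 ± 0.057 SE, limma adjusted p = 5.28e-10) and AT5G02760 32.5 ± 0.664 FPKM in CCA1-ox shoots and 14.5 ± 0.688 FPKM in WT shoots (log2 fold change 1.11 ± 0.056 SE, limma adjusted p = 7.46e-10).

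Several large families of enzymes and regulators had more genes higher than lower, where 27.2% of all genes were higher and 32% lower. Cytochromes P450 oxidise hormones and defence compounds, and of 108 tested 66 were higher and 23 lower. Glutathione S-transferases, which detoxify, rose in 20 of 36 and fell in 7. Among transcription factors, bHLH genes rose in 44 of 87 and fell in 13, NAC genes rose in 23 of 42 and fell in 8, and AP2/ERF genes rose in 25 of 45 and fell in 7. Their median log2 fold changes were 0.27 for P450, 0.17 for glutathione S-transferases, 0.13 for bHLH, 0.18 for NAC and 0.22 for AP2/ERF genes. Of the tested genes 12 P450, 1 glutathione S-transferase, 5 bHLH, 5 NAC and 2 AP2/ERF genes passed the filter only through CCA1-ox. Other families did not share this. GDSL lipases had 14 higher and 20 lower of 47 (median −0.098), and pectin lyase-like proteins 13 higher and 13 lower of 39 (median −0.032). Among bZIP factors 16 were higher and 12 lower of 51 (median 0.032).

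Beyond the lists, the highest rises included genes close to silent in WT shoots. DR4, a protease-inhibitor-like gene known as repressed by drought, had 680.1, 640.4 and 639 FPKM in CCA1-ox shoots, against 7.22, 6.72 and 5.32 FPKM in WT shoots (log2 fold change 6.47 ± 0.068 SE, limma adjusted p = 4.91e-17). AT5G37990, annotated as a methyltransferase, had 181, 180.3 and 190.3 FPKM in CCA1-ox shoots, against 1.41, 0.613 and 1.098 FPKM in WT shoots (log2 fold change 6.52 ± 0.097 SE, limma adjusted p = 1.56e-15). AT4G11320, a papain-type protease, had 521, 543 and 533 FPKM in CCA1-ox shoots, against 26.95, 28.3 and 26.7 FPKM in WT shoots (log2 fold change 4.24 ± 0.027 SE, limma adjusted p = 4.76e-19). All 3 were at 144 FPKM or more in WT roots. Switch-like genes, under 0.5 FPKM in all libraries of 1 group and at least 10 FPKM in all of the other, numbered 10. AT2G01422, an unclassified RNA, had 92.5, 92.4 and 94.9 FPKM in CCA1-ox shoots, against 0.06998, 0.0336 and 0.125 FPKM in WT shoots, and the galactinol synthase gene GolS2 15.8, 15.8 and 15.6 FPKM in CCA1-ox shoots, against 0.3296, 0.261 and 0.191 FPKM in WT shoots. MRD1, first described as lowered in a methionine mutant, was the single switch-like gene lost in CCA1-ox, with 0.0881, 0.0866 and 0.0822 FPKM in CCA1-ox shoots, against 34.6, 34.9 and 34.3 FPKM in WT shoots (log2 fold change −5.04 ± 0.053 SE, limma adjusted p = 4.91e-17).

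The deepest falls after MRD1, LHY, JMJD5 and ELF4 included genes of no clock list. AT4G34950, a major facilitator carrier, had 3.35, 2.796 and 3.17 FPKM in CCA1-ox shoots, against 28.5, 29.5 and 29.7 FPKM in WT shoots (log2 fold change −2.88 ± 0.091 SE, limma adjusted p = 4.09e-12). ERD9, a glutathione S-transferase induced by dehydration, had 6.14, 5.06 and 7.44 FPKM in CCA1-ox shoots, against 33.3, 34.0 and 33.99 FPKM in WT shoots (log2 fold change −2.28 ± 0.11 SE, limma adjusted p = 5.63e-10). AT1G13650, of unknown function, averaged 1.58 ± 0.348 FPKM in CCA1-ox shoots and 20.2 ± 0.747 FPKM in WT shoots (−3.05) and was at 0 in all root libraries. In each of the 12 deepest falls the groups did not overlap, as the rule for naming them required.

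Set against roots of the same genotypes, the effect in shoots differed in many genes. The shoot effect minus the root effect, tested as an interaction in the same limma fit, was called in 9507 genes (50.7%). Of the 11101 genes called in shoots, 2536 were called in the same direction in roots, 2004 in the opposite direction and 6561 were not called there. A change of at least 2-fold in opposite directions in both organs was found in 32 genes (0.171%), and all 32 rose in shoots and fell in roots. Of the 32, PDF2.1, VSP1, TPS12, CYP71A19, SNRK2.9, GASA5 and EARLI1 passed the filter only through CCA1-ox, so that their direction in shoots was fixed. The same held for PERK4, AT1G07500, AT2G18480, AT4G14060, AT4G35720 and a transcript without a gene name. Among all genes tested, rises of at least 2-fold in shoots also outnumbered such falls, 791 against 160. PDF2.1 had 11.5, 7.83 and 10.1 FPKM in CCA1-ox shoots, against 0.238, 0.458 and 0.427 FPKM in WT shoots, and 30.4, 25.6 and 31.3 FPKM in CCA1-ox roots, against 251, 256 and 271 FPKM in WT roots (shoot minus root 6.08, limma adjusted p = 7.18e-13). VSP2, high in CCA1-ox shoots, had 0.111, 0.164 and 0.249 FPKM in CCA1-ox roots, against 4.98, 4.63 and 5.29 FPKM in WT roots (shoot minus root 5.91, limma adjusted p = 1.20e-13). CAT3, HIS1-3 and VSP1 showed the same pattern, with log2 fold changes of 1.24, 2.36 and 2.07 in shoots and −1.14, −1.08 and −1.09 in roots. LHY, JMJD5 and MRD1 were lower in both organs: LHY changed by −4.71 in shoots and −3.62 in roots, JMJD5 by −3.87 and −3.86, and MRD1 by −5.04 and −4.98.

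**Figure D5:**
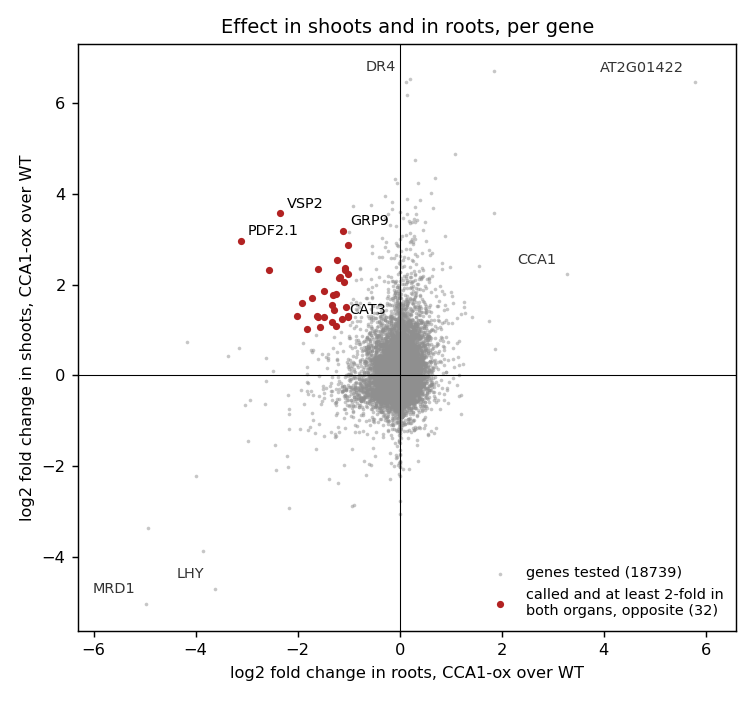
Log2 fold change of each gene in shoots (vertical axis) against that in roots (horizontal axis), both CCA1-ox over WT; red points are the 32 genes called and at least 2-fold in both organs in opposite directions. All red points lie upper left, higher in CCA1-ox shoots and lower in CCA1-ox roots, while LHY and MRD1 are low and AT2G01422 and CCA1 high in both. Some red points, PDF2.1 among them, passed the filter only through CCA1-ox, which fixed their direction in shoots.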

How the data were processed

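RNA was sequenced from 12 libraries, and the 6 shoot libraries carry the comparison. The authors deposited FPKM per gene, on TAIR10 per the submitters' processing notes, from libraries made with a stranded kit per the labels' protocols. Not given in the sources used here are the aligner, the counter, the strand setting and the scaling. FPKM times gene length was a whole multiple of 1 step per library for 100% of values (tolerance 0.1 of a fragment), and the fragments recovered in this way gave the library totals. The 3 libraries of each shoot group differed by more than sampling noise (median chi-square 1.12 to 1.29, against 0.455 by chance). The deposited FPKM were tested with limma 3.58.1 in R 4.3.3 as log2(FPKM + 1), with a mean-variance trend and all 12 libraries as 4 group means (8 residual degrees of freedom), two-sided, with Benjamini-Hochberg adjustment. On data made with known changes in 200 of 18739 genes, this shoot comparison recovered 26, 44, 48 and 50 of 50 genes at log2 changes of 0.25, 0.5, 1.00 and 2.00. It made 9 false calls among 18539 unchanged genes. The made data had 1 added spread for all genes and no scaling difference between groups, so they do not cover the effect of the deposited scaling.

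The genes, lists and families were chosen with earlier results of these data known. Lists were matched by locus, and families by product names in the RefSeq annotation (TAIR10.1), because the table has no column of gene families; no test was made of a list. From each list up to 4 called genes with the largest change are named, or its most abundant gene; from each family up to 3 with a mean of at least 5 FPKM; then the 12 highest rises, the 12 deepest falls, the 10 most abundant genes and the switch-like genes. PRR9, LNK1, LNK2, RVE1, RVE7, TOC1, GI and other genes outside this rule were chosen after their values were seen. Sequences come from TAIR10.1, on which 99.95% of 32536 nuclear genes have the table's positions. Of the genes tested, 29.2% overlap a gene on the other strand, and their values, like those of near-identical copies (LHCB1, RBCS, miR398b and miR398c, AOC, VSP), are uncertain; LNK1, LNK2, RVE1, FKF1, BOA, LUX, ELF3, HEME1, CHLM, CRD1, BCH2, PSY, RCA, CAB1, LHCB1.5, BAM9, BAM3, DIN10, miR398b, miR408, CSD1, CAT2, GDPD1, PAP17, PHR1, NF-YA9, miR169a, ath-MIR841a, APR1, APR2, APR3, NRT1.5, BHLH38, ASFT, CER2, CASP1, PER64, CHS, F3H, MYC2, JAZ10, ROT3, COL2, FLC, AT1G69570, AT5G02760, MRD1, ERD9 and GolS1 are among those that overlap another gene. Alternatives tried were pseudocounts of 0.1 and 5, no filter, a filter at 5 FPKM, the 6 shoot libraries alone, quantile normalization, scaling to the summed fragments, voom on recovered fragments, a replicate block and leaving out each library.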

Additional observations from a re-analysis of the deposited data

Results flagged for a closer look

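For 8 genes the difference between the shoot and the root effect was called (limma interaction, Benjamini-Hochberg), as in 50.7% of all genes tested. These genes were chosen for opposite directions in the organs, so the interaction call adds no separate evidence. They are those with the largest interaction among the 32 genes with opposite changes of at least 2-fold and a mean of at least 5 FPKM in the higher shoot group. The defensin PDF2.1 had a shoot minus root effect of 6.08 on the log2 scale, with mean levels of 9.82 ± 1.87 FPKM in CCA1-ox shoots and 0.374 ± 0.119 FPKM in WT shoots, and 29.1 FPKM in CCA1-ox roots and 259 FPKM in WT roots. The jasmonate-responsive VSP2 had 5.91, with 33.7 ± 1.02 FPKM in CCA1-ox shoots and 1.94 ± 0.373 FPKM in WT shoots, and 0.175 FPKM in CCA1-ox roots and 4.97 FPKM in WT roots. The glycine-rich protein gene GRP9 had 4.305, with 41.8 ± 1.46 FPKM in CCA1-ox shoots and 3.71 ± 0.3101 FPKM in WT shoots, and 1171 FPKM in CCA1-ox roots and 2545 FPKM in WT roots. The carrier AT2G18480 had 3.77 and the berberine-bridge-type oxidase AT5G44400 3.51. A transcript without a gene name, at chr1:20408166-20411675 on TAIR10, had 3.88, with 7.82 ± 0.7803 FPKM in CCA1-ox shoots and 0.201 ± 0.0994 FPKM in WT shoots. The linker histone HIS1-3 had 3.44 and the galactinol synthase GolS1 3.399, in which 14.9 ± 1.45 FPKM in CCA1-ox shoots and 2.18 ± 0.305 FPKM in WT shoots stood beside 28.02 FPKM in CCA1-ox roots and 60.1 FPKM in WT roots. Of these 8 genes PDF2.1, AT2G18480 and the transcript without a gene name passed the filter only through CCA1-ox, and the choice of the 8 fixed their direction in shoots.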

How the results depend on the processing

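Of 180 genes named with values, 176 were called, and these kept their direction in every alternative run, apart from CAB1, which as the most abundant gene was not called, with a difference of 1.78e-15, under quantile normalization; 9 others were not called in at least 1 alternative (CAB3, RBCS1A, miR156a, WOX5, the 3 miR169 precursors, SPL7 and TGG1). Genes not called turned direction by scaling: AHA1 (HA1) to 0.090, 0.058 and 0.060 and AHA2 (HA2) to 0.11, 0.11 and 0.11 under quantile normalization, summed fragments and voom, APR3 (3-Apr) to 0.102 and 0.11 under summed fragments and voom, and JAZ10 to −0.24 under quantile normalization. The number of genes called, 11101, was 10389 to 11149 with a library left out, and the interaction count, 9507, was 8909 to 9173; calls higher were 4794 to 5115, lower 5560 to 6034, at least 2-fold higher 786 to 791, at least 2-fold lower 159 to 163, and the share of called genes that were higher 45.8% to 46.5%. That share, 45.96% as reported, turned to 64.8% when scaled to the summed fragments and to 64.2% under voom, by construction of the scaling; calls lower were then 3869 and 4093, against 5999. Counts past 2-fold depend on the pseudocount: 1139 higher and 245 lower with 0.1 FPKM, and 276 and 64 with 5 FPKM. They were 483 higher with a filter at 5 FPKM, which tests fewer genes, and 1382 under voom, where no pseudocount of 1 FPKM applies. Same-numbered CCA1-ox and WT shoot libraries did not vary together (correlations of deviations −0.034 to 0.061), so the numbers do not pair samples; with a replicate block 11007 genes were called, 5049 of them higher, and the interaction was called in 9427. Depth limits low genes, such as PRR9 or the microRNA precursors, more than abundant ones. All interaction counts given here keep the deposited scaling.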
